A study of Mus musculus with 8 samples.

Results

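The kidney of a mouse given the higher of the study's lead doses was set against the kidney of an unexposed mouse. The rule that chooses the arrays uses their labels and no measured value. They are the array titled as the high-dose kidney and the array titled as the control kidney, 2 of the 8 arrays of the series. The high-dose array holds kidney RNA of male mice that drank lead acetate at 1000 mg/L for 3 weeks, and the control array kidney RNA of male mice on distilled water. A further kidney array, from male mice on 100 mg/L, is set beside them and shares the control array with them. The labels give no strain or age and do not say whether an array holds RNA of 1 animal or of several. RNA was taken from small pieces of tissue, so the share of cortex, medulla and neighbouring tissue in a piece was not fixed. With 1 array in each group, differences are described by their size and none was tested.

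Lead taken up from the gut reaches the kidney with the blood and enters the cells of the proximal tubule, where it binds thiol groups of proteins. Cells meet reactive metals and electrophiles with proteins that carry thiols, such as metallothioneins and glutathione, with enzymes that join glutathione to reactive compounds, and with pumps that export the products. Many of these genes are known targets of the transcription factor NRF2, which is held in the cytoplasm by KEAP1 until KEAP1's thiols are modified. Injured tubule cells are known to make a second set of genes, among them Havcr1 (kidney injury molecule 1) and Lcn2 (the iron-scavenging protein lipocalin 2).

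A level below is the log2 signal of a gene's probe relative to the 75th percentile of its array, and a difference is the level in the high-dose kidney minus the level in the control kidney, on the log2 scale. Of 37325 gene names on the array, 21396 were measured, meaning that their probe was flagged as well above background, and was below saturation, in both kidneys. To be counted as higher or lower, a gene needed a difference of 1 (2-fold) or more that also exceeded 3 array errors, an array error being what the scanner software gives for both spots together. That error was 0.21 for the median gene and 0.20 to 0.38 for the genes counted, and it leaves out any variation between animals or tissue pieces. The signal at the 75th percentile was 782 on the high-dose array and 729 on the control array, and 60.6% and 61.0% of probes were well above background. Over all measured genes the median difference was -0.03 and the SD 0.33, and 91.7% of genes lay within 0.5 of 0.

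The kidney label was borne out on both arrays by 30 defining genes of the proximal tubule, of which 30 were measured, with a median level of 6.53 in the high-dose kidney and 6.47 in the control kidney. Genes known as markers of sperm, liver, urothelial and adrenal cells also differed between these 2 arrays. They are given first because they touch the results below. Over all measured genes 1.13% were higher and 0.570% lower on the high-dose array. The gene lists here and below were written with earlier results of these data known. Setting their shares beside this background is therefore a description and not a test. Of 17 measured genes of late sperm formation 13 were higher. Genes of liver plasma proteins were higher too (13 of 33), genes of the urothelium, the lining of the renal pelvis, were higher (5 of 9), and genes of the adrenal gland were lower (4 of 11). In whole tissue, fewer cells of a type and less RNA per cell cannot be told apart. Under a stricter filter on dim probes these counts were 3, 8, 0 and 2, and after normexp background correction 8 of the liver genes and 3 of the urothelial genes were higher. The stricter filter left only 1 of the 9 urothelial genes measured. The part of such cells in the results was not tested.

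In the high-dose kidney 241 genes were higher and 122 lower than in the control kidney, which is 1.70% of the measured genes counted in either direction, 1.13% higher and 0.570% lower. The low-dose kidney, set against the same control array, had 0.510% of measured genes counted, 0.233% higher and 0.276% lower. Of the 122 lower genes 111 were also measured at the low dose, and 104 of these lay below the control there. Their low-dose median was -0.79, and 39 passed the rule as lower there too. Of the 241 higher genes 204 were measured at the low dose and 143 lay above the control. Their low-dose median was 0.13, and 12 passed the rule as higher there. Another 2, the sperm genes Prm1 (-1.37) and Tnp1 (-1.565), passed it as lower at the low dose. At the high dose the higher genes formed 66.4% of those counted, and 82.5% when the background was corrected by the normexp method (127 higher and 27 lower). Differences of 2 or more, 4-fold, were seen for 61 of the higher genes and 6 of the lower ones. Most of the genes counted were dim. Their median level over both arrays was -2.12 for the higher and -2.87 for the lower genes, against -0.29 for all measured genes. Of the higher genes 188 and of the lower genes 56 have a gene symbol matched in RefSeq by accession, and most of the others are clones, gene models, loci or olfactory receptors.

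**Figure D1:**
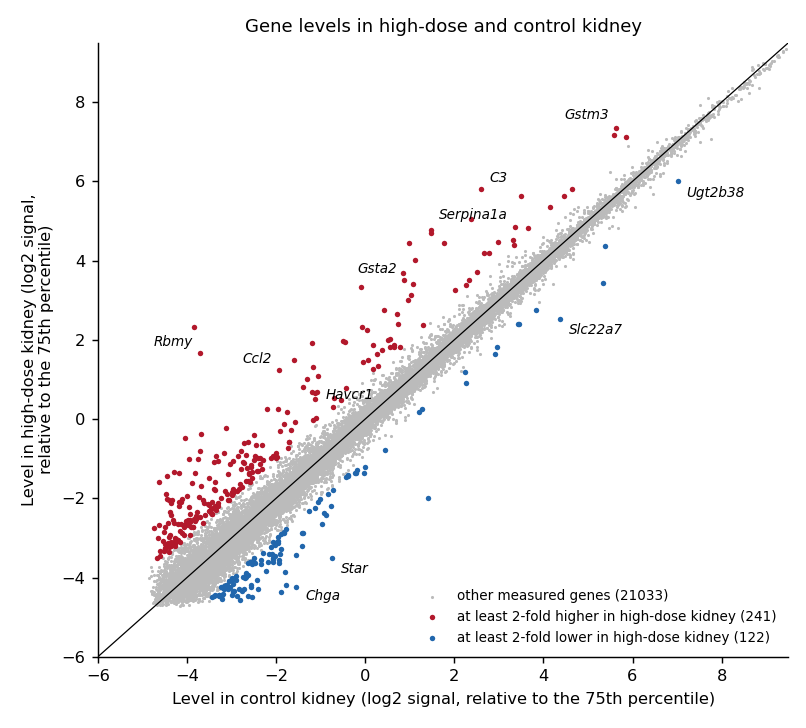
Level of each measured gene in the high-dose kidney (vertical axis) against its level in the control kidney (horizontal axis), both as log2 signal relative to the 75th percentile of the array, 1 array each. The line marks equal levels. The 241 higher genes lie above it over the whole range of levels, up to Gstm3 at 7.36 in the high-dose kidney and 5.63 in the control, while most of the 122 lower genes lie at the dim end.

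Enzymes that detoxify electrophiles stood out among the brighter of the higher genes. Of 33 listed NRF2 target genes 31 were measured, 12 were higher by at least 2-fold and 0 were lower, 30 of the 31 lay above 0, and the median difference was 0.56. The share counted as higher over all measured genes was 1.13%, and the list was written with earlier results of these data known. In the low-dose kidney 0 of the 31 were counted in either direction and the median difference from the same control array was 0.02. The background correction, the scaling and the filter on dim probes moved the count of 12 no lower than 11.

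Gsta2, an alpha-class glutathione transferase, stood at 3.51 in the high-dose kidney and 0.87 in the control kidney, a difference of 2.64 (array error 0.20). The mu-class transferase Gstm3 was at 7.36 in the high-dose kidney against 5.63 in the control, and Gstm1 at 7.16 against 5.58. In the low-dose kidney Gstm3 was at 5.87 and Gstm1 at 5.72, near their control levels. Over all classes 22 of 23 listed glutathione transferase genes were measured, and 8 were higher and 0 lower, with a median of 0.70. The share over all measured genes was 1.13% higher and 0.570% lower. This list shares members with the NRF2 list. Of 46 genes measured on the 2 lists together, 14 were higher and 0 lower. Gstm4 differed by 1.65, Gstm6 by 1.46, the pi-class Gstp1 by 1.23, the alpha-class Gsta3 by 1.21 and the membrane-bound Mgst1 by 1.19. Other probes of the same genes gave 1.78 for Gstm1, 1.35 for Gsta3 and 1.17 for Mgst1. Gstm2 (0.63), Gstm5 (0.24), Gstm7 (0.58) and Gsta4 (0.76) stayed under 2-fold. The coding sequences of the Gstm genes, and those of the Gsta genes, are alike, so a probe of one may also bind transcripts of another and the values of single members are uncertain.

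Enzymes of other classes on the NRF2 list followed. The carbonyl reductase Cbr3 was at 0.49 in the high-dose kidney and -1.14 in the control, and the microsomal epoxide hydrolase Ephx1 at 4.19 against 2.66. Heme oxygenase Hmox1, which opens the heme ring, was at 3.51 against 2.33, and the quinone reductase Nqo1 at 0.30 against -0.72. The list was not uniform. The genes of glutathione synthesis, Gclc and Gclm, differed by 0.56 and 0.01, and Srxn1, which repairs oxidised peroxiredoxins, by 0.24. The genes that remove superoxide and peroxide, a separate list of 21, had 0 members past the rule and a median difference of 0.05.

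Promoter sequences are shown for 3 higher genes of the NRF2 list. They were chosen because their promoters hold a match to the known motif of NRF2, the antioxidant response element. In the 250 bases before the RefSeq start, in build GRCm38.p6, capitals mark each match to its core TGACNNNGC on either strand.
Gsta3 (chr1:21240335-21240584, plus strand): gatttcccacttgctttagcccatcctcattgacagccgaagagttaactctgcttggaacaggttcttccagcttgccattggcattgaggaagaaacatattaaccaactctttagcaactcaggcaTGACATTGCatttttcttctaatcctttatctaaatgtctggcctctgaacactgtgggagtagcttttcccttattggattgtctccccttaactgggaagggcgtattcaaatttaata
Mgst1 (chr6:138140277-138140526, plus strand): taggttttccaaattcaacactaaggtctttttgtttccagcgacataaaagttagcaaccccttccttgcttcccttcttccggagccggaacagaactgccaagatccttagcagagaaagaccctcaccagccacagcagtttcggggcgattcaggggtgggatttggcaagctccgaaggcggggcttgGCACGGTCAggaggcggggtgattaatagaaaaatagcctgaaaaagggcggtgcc
Abcc4 (chr14:118706220-118706469, minus strand): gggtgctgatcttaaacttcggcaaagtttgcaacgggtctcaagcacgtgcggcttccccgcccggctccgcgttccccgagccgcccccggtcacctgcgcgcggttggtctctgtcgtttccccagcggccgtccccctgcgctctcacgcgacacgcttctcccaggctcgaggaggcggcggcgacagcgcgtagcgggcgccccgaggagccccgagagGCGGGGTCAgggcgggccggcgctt
Each window holds 1 match, in the reading direction of the gene for Gsta3 and on the opposite strand for Mgst1 and Abcc4. Of the 28 NRF2 list genes with a promoter in the RefSeq table, 9 (32.1%) had a match, and of the 10 of them that were higher in the high-dose kidney 3 had one. These are the 3 shown, while Gsta2, Gstm1, Gstm3, Ephx1, Nqo1, Cbr3 and Gstp1 had none in these 250 bases. Sequence further from the start was not searched, so a gene with no match here may have one there. Of all 27025 genes with a promoter 11.5% had a match, and of 173 higher genes 13.3%, against 13.5% of measured genes. Mgst1 has another RefSeq start whose window holds no match. Abcc4 also has another start, and its window holds 1 match, in the reading direction of the gene. A match is a description of the letters and not a binding site.

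Other enzymes that act on carbonyls, esters and aldehydes were among the largest differences of named genes. The aldo-keto reductases Akr1c12 and Akr1c13 differed by 2.40 and 2.35, and they were the 2 counted as higher of 8 measured Akr1c genes. The carboxylesterases Ces1g (2.89), Ces2e (2.32) and Ces3a (1.15) were higher, 3 of 11 measured Ces genes. The retinal dehydrogenase Aldh1a1 was at 1.87 in the high-dose kidney against 0.16 in the control. These genes were on no list and were named after their values were seen. Of 33 measured cytochrome P450 genes of families 1 to 4, 2 were higher and 0 lower, against 1.13% and 0.570% of all measured genes. The 2 were Cyp4v3 (1.50) and Cyp2c23 (1.14, and 0.92 after normexp correction). The proximal tubule enzyme Cyp2e1 was at 7.07 against 7.77, a difference of -0.69, with -0.82 on its other probe.

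Conjugating enzymes of another family lay on the opposite side. Of 20 measured glucuronosyl and sulfo transferases, 0 were higher and 3 lower, against 1.13% and 0.570% of all measured genes. The 3 belong to the Ugt2b family, which joins glucuronic acid to steroids and drugs. Ugt2b38 was at 6.01 in the high-dose kidney and 7.01 in the control, Ugt2b37 at 4.37 against 5.38, and Ugt2b5 at 2.75 against 3.84. Ugt2b36 and Ugt2b35 differed by -0.95 and -0.92, just inside the limit, so 5 of 6 measured Ugt2b genes lay at -0.92 or below. Ugt2b37 and Ugt2b38 fell short of 2-fold under median scaling (-0.99 and -0.98) and quantile normalization (-0.99 and -0.98). The 3 measured Ugt1a genes lay between 0.18 and 0.59. Ugt2b sequences are alike, and the values of single members are uncertain.

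Metallothioneins, small proteins that bind metals through cysteine thiols, were higher. Mt1 was at 7.12 in the high-dose kidney and 5.85 in the control kidney, a difference of 1.27, and Mt2 was at 5.35 against 4.14, a difference of 1.20. The other measured probe of Mt1 gave 0.49, and the mean of both probes, 0.88, fell short of 2-fold. Mt3, the form known from brain, differed by -0.16, and Mtf1, the zinc sensor that activates Mt1 and Mt2, by 0.01. Mt4 was not well above background. The metal response element, the motif that MTF1 is known to bind, was looked for as TGCGCNC or TGCACNC on either strand, and is in capitals below.
Mt1 (chr8:94178839-94179088, plus strand): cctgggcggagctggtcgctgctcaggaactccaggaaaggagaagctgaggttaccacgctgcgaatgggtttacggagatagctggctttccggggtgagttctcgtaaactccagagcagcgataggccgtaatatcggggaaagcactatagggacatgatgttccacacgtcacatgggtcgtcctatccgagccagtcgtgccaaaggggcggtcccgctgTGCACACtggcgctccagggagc
Mt2 (chr8:94172368-94172617, plus strand): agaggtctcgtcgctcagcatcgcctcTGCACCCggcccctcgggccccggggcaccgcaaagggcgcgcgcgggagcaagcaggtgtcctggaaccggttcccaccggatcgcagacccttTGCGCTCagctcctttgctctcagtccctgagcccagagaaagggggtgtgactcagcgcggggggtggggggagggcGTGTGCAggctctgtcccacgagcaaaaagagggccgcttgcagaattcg
The Mt2 window (GRCm38.p6) holds 3 matches and the Mt1 window 1. The Mt2 window also holds 1 match to the antioxidant core, which does not overlap them and is not in capitals. The metal motif was in 23.8% of all 27025 genes with a promoter and in 36 of the 173 higher genes with a promoter (20.8%), against 31.7% of measured genes.

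Heme and iron genes were mostly level with the control. Of 13 genes of heme synthesis and breakdown 1 was higher, Hmox1. Lead is known to inhibit the enzyme that Alad encodes, and the Alad transcript was at 4.82 in the high-dose kidney and 4.92 in the control. Alas1, the first enzyme of the pathway, differed by 0.59 and the biliverdin reductase Blvrb by 0.66. The differences of Alas2 (0.24), Uros (-0.22), Urod (-0.26), Cpox (-0.04), Ppox (-0.17), Fech (0.21), Hmox2 (0.19) and Blvra (0.02) lay between -0.26 and 0.24. Of 16 measured iron genes 3 were higher, against 1.13% of all measured genes. They were Lcn2 (1.62), the copper-carrying ferroxidase Cp (1.95) and the transferrin receptor Tfr2 (1.39, and 0.57 after normexp correction). The other probes of Cp ranged from -0.12 to 1.15, and the mean over its probes was 0.83, short of 2-fold. Hfe, a partner of the transferrin receptors, differed by 0.94 and transferrin, Trf, by 0.49. The ferritin chains Fth1 (0.12) and Ftl1 (0.11), the iron exporter Slc40a1 (0.21), the importer Slc11a2 (-0.13), the receptor Tfrc (0.08), and Aco1 (-0.13), Ireb2 (0.13), Steap3 (-0.31), Heph (0.10) and Bmp6 (-0.02) were within 0.31 of the control. Hamp, Hamp2, Cybrd1, Ltf and Hjv were not well above background.

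**Figure D2:**
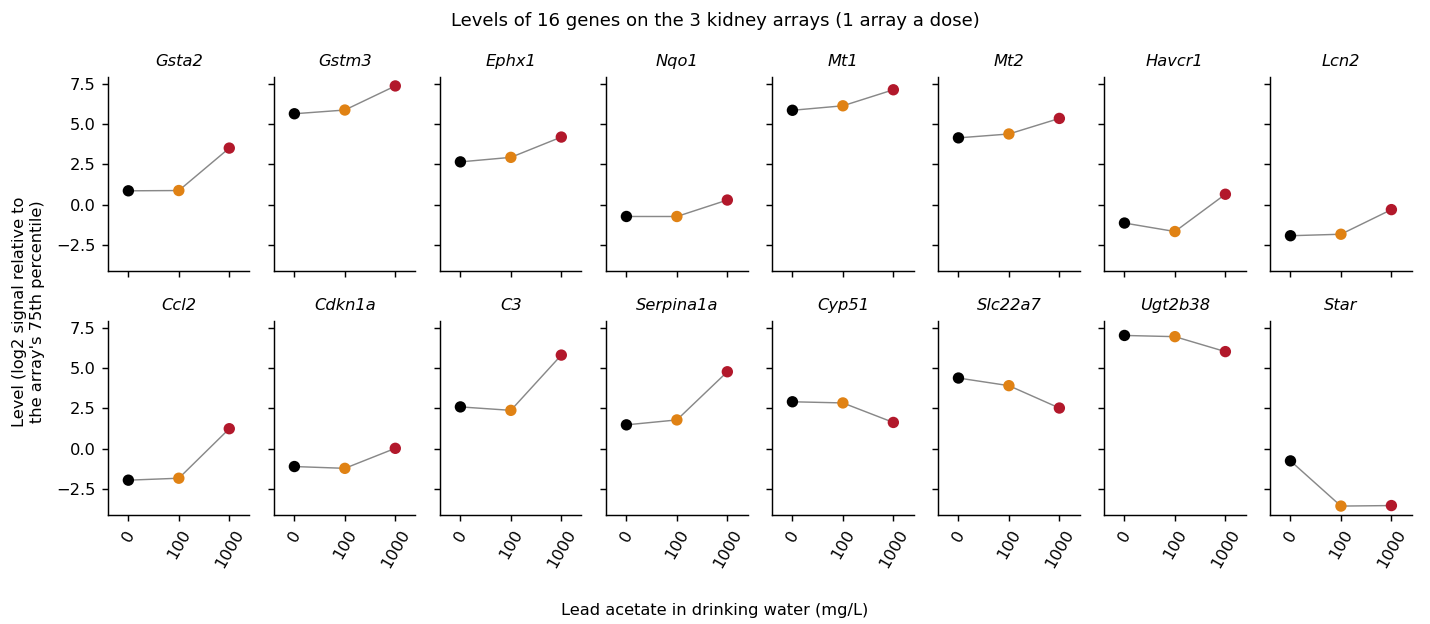
Levels (log2 signal relative to the 75th percentile of the array) of 16 genes in kidneys of mice given 0, 100 and 1000 mg/L lead acetate, 1 array a dose, with a grey line joining the 3. Gsta2, Gstm3, Ephx1, Nqo1, Mt1, Mt2, Havcr1, Lcn2, Ccl2, Cdkn1a, C3 and Serpina1a are highest at 1000 mg/L, Cyp51, Slc22a7 and Ugt2b38 are lowest there, and Star is low at both lead doses.

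Transporters, which the series title names, were counted by family. Of 421 measured, 11 were higher and 5 lower in the high-dose kidney, and without the sperm subunit Atp1a4 the count of higher members was 10. The background was 1.13% higher and 0.570% lower. Of 37 measured ABC transporters, which use ATP to pump substrates out of cells or organelles, 5 were higher and 0 lower, and 3 of the 5 are encoded side by side on chromosome 5. These are Abcb1a, at -1.31 in the high-dose kidney against -2.40 in the control, Abcb1b, at -0.13 against -1.83, and Abcb4, at -0.28 against -1.67. Abcb1a and Abcb1b encode P-glycoproteins and Abcb4 a phospholipid flippase. The pumps for glutathione and glucuronide conjugates, Abcc3 and Abcc4, were at -0.94 against -2.47 and at 1.45 against -0.05, while Abcb1a was 0.81 higher after normexp correction, short of 2-fold. The remaining ABC genes lay between -0.36 and 0.66. On the narrower list of 25 measured efflux pumps the count of 5 was 2 under the stricter filter.

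Organic anion carriers of the Slc22 family, which take drugs and urate across the proximal tubule cell, made up 3 of the 5 lower transporters. Slc22a7 was at 2.52 in the high-dose kidney and 4.38 in the control, Slc22a26 at -2.86 against -1.39, and Slc22a19 at -1.37 against -0.02. Slc22a26 was at -0.54 in the low-dose kidney, above both. The basolateral carrier Slc22a8 had the largest positive difference of the Slc22 genes, 0.90, short of 2-fold. The higher carriers outside the ABC family were the sulfate carrier Slc13a4 (1.48), the membrane transporter Slc4a11 (1.42), the water channel Aqp8 (1.02), the zinc importer Slc39a4 (1.34) and the anion carrier Slco4a1 (1.38). Slc39a4 and Slco4a1 also differed by 2.27 and 1.14 in the low-dose kidney. Other probes of Slco4a1 gave -0.08 and 0.05, and the mean over its probes was 0.45. Slc26a7 (-1.09) and Slc29a4 (-1.04) completed the lower ones. After normexp correction Aqp8, Slc39a4, Slc26a7 and Slc29a4 fell short of 2-fold (0.94, 0.69, -0.58 and -0.53).

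**Figure D3:**
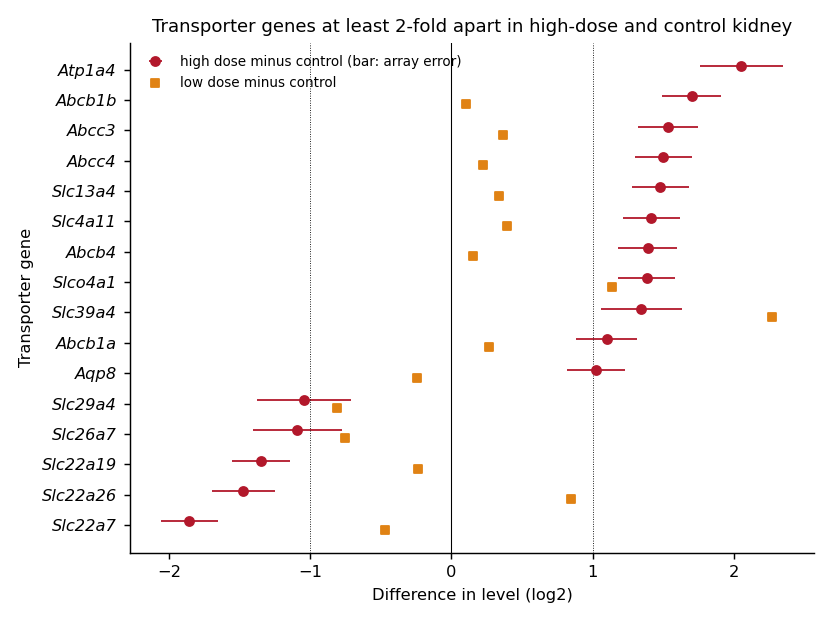
Difference in level (log2) of the 16 transporter genes that were at least 2-fold higher or lower in the high-dose kidney than in the control kidney. Red circles give the high dose minus control with the array error as a bar, orange squares the low dose minus the same control where the low-dose array was well above background, and dotted lines mark 1 and -1. The 5 ABC genes lie between 1.10 and 1.70 at the high dose and Slc22a7 at -1.86.

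Some genes known to be made by injured tubules were higher. Of 36 listed, 30 were measured, and 8 were higher and 0 lower, against 1.13% and 0.570% of all measured genes. Of the 30, 26 lay above 0, and the median difference was 0.56. The stricter filter left 5 higher. The largest difference of the list, 3.18, is that of Ccl2, which is counted again among the chemokines below. Havcr1 was at 0.66 in the high-dose kidney and -1.13 in the control, and Lcn2 at -0.29 against -1.91. Havcr1 is shed into urine by damaged proximal tubule cells, and both are used as markers of kidney injury. Gdf15, a stress hormone, was at 1.81 against 0.57, and the cell cycle inhibitor Cdkn1a at 0.03 against -1.09 (0.98 after normexp correction). Krt19, a keratin of ducts and urothelium, differed by 1.16 at the high dose (0.78 after normexp correction) and by 1.11 at the low dose. Krt20 was well above background in the high-dose kidney alone and at least 6.36-fold higher there. Spp1 (0.60), Vcam1 (0.75) and Anxa3 (0.86) stayed under 2-fold, and 6 genes including Fgb, Mmp7 and Ccl20 were not measured on both arrays.

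Chemokines, the secreted proteins that draw in leukocytes, had 4 higher and 1 lower among 27 measured members of the ligand and receptor list, against 1.13% and 0.570% of all measured genes. Ccl2, which attracts monocytes, was at 1.25 in the high-dose kidney and -1.94 in the control, a difference of 3.18 (array error 0.21). Ccl5 was at 1.97 against -0.50, and the neutrophil attractant Cxcl1 at -1.37 against -3.81. Cxcl10, known to be induced by interferon, differed by 2.31. All 4 lay within 0.13 of the control in the low-dose kidney. Ccl28, made by mucosal epithelia, was lower (-1.43, and -1.17 on its other probe). Markers of the cells that such signals attract differed less. Of 17 measured macrophage genes 0 passed the rule, 14 lay above 0, and the median was 0.52. Adgre1, a surface receptor of tissue macrophages, differed by 0.83, Lyz2 by 0.76 and Csf1r by -0.39. Summed over the list, the macrophage level was 5.91 in the high-dose kidney and 5.84 in the control. Of 14 neutrophil genes 6 were measured and 1 was higher, Lcn2, which injured tubules also make. The others were S100a8 (-0.98), S100a9 (-0.92), Elane (-0.28), Ly6g (-0.22) and Camp (0.13), and the list median was -0.25.

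Complement and acute phase genes showed a few large differences. C3, the central complement protein, which tubule cells are also known to make, was at 5.80 in the high-dose kidney and 2.59 in the control, with 3.21 on the reported probe and 2.84 on the other. It was the 1 of 23 measured complement genes past the rule, and C4b differed by 0.70 and C1qa by 0.54. Of 18 measured acute phase genes 5 were higher and 1 lower, against 1.13% and 0.570% of all measured genes. Saa1 was at 0.67 against -1.19 and Saa4 at -1.69 against -3.68, and Saa2 and Saa3, not well above background in the control, were at least 30.0-fold and 20.3-fold higher. The Saa genes encode serum amyloid A proteins and are alike in sequence. The heme binder Hpx was higher (1.67, and 0.71 after normexp correction), and the hemoglobin binder Hp was lower (-1.02, and -0.97 after normexp correction). Among 22 genes of antigen presentation 1 was higher, the class II chain H2-Ab1 (1.17, with 3 other probes between 0.98 and 1.10), and 19 lay above 0. Of 34 interferon response genes 1 was higher, Oasl1 (2.47, other probe 2.51), with a list median of 0.15.

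Genes of liver plasma proteins had 13 higher and 1 lower of 33 measured, against 1.13% and 0.570% of all measured genes. Their summed level was 7.67 in the high-dose kidney and 6.56 in the control, while Apoa1, F9, Plg and Cps1 were not measured on both arrays. The alpha-1 antitrypsin genes Serpina1a to Serpina1e differed by 2.84 to 3.45, with Serpina1a at 4.77 in the high-dose kidney and 1.48 in the control. These 5 are near-identical copies, and their probes cannot be taken as 5 separate results. Antithrombin, Serpinc1, was at 2.25 against 0.05, with 0.32 on its other probe, and the apolipoprotein Apoc1 at 3.12 against 1.02. Gc, the carrier of vitamin D in plasma, was at 4.01 against 1.12. Of 9 measured major urinary protein (Mup) genes, also near-identical, 7 were higher, by 1.43 to 2.21. Among other plasma proteins F2, prothrombin, was at least 10.03-fold higher, and Hpx differed by 1.67, Alb by 1.22 (0.85 on its other probe), Ahsg by 1.38, Fga by 0.48 and Itih2 by -1.24, and Apoh was level with the control at 1.87 against 1.88. Apoh and Ahsg had levels of 9.15 and 10.2 on the control liver array, and Serpina1a 10.5. Of the 241 higher genes 68 had a level at least 3 above that of the low-dose kidney on the control liver array, 28.2%, against 2.89% of all measured genes. Whether these transcripts came from kidney cells was not tested.

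Genes of stress responses differed gene by gene. Of 21 measured targets of ATF4, the factor of the amino acid and integrated stress response, 4 were higher and 0 lower, against 1.13% and 0.570% of all measured genes. Chac1, which degrades glutathione, was at -0.66 in the high-dose kidney and -2.45 in the control, the pseudokinase Trib3 at -0.90 against -2.67, and asparagine synthetase, Asns, at 0.77 against -0.42. Atf3 differed by 1.34, and by 0.81 after normexp correction. Of 20 chaperones of the endoplasmic reticulum 0 passed the rule, with a median of -0.01, and of 16 heat shock genes 1 was higher, the small heat shock protein Cryab (1.41). Of 23 measured p53 and growth arrest genes 3 were higher, Phlda3 (1.36), Gdf15 and Cdkn1a, and Gadd45g was lower. Gadd45g, a growth arrest gene that is bright in the kidney, was at 3.42 against 5.35, and at 4.35 in the low-dose kidney. None of 32 cell cycle genes passed the rule.

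**Figure D4:**
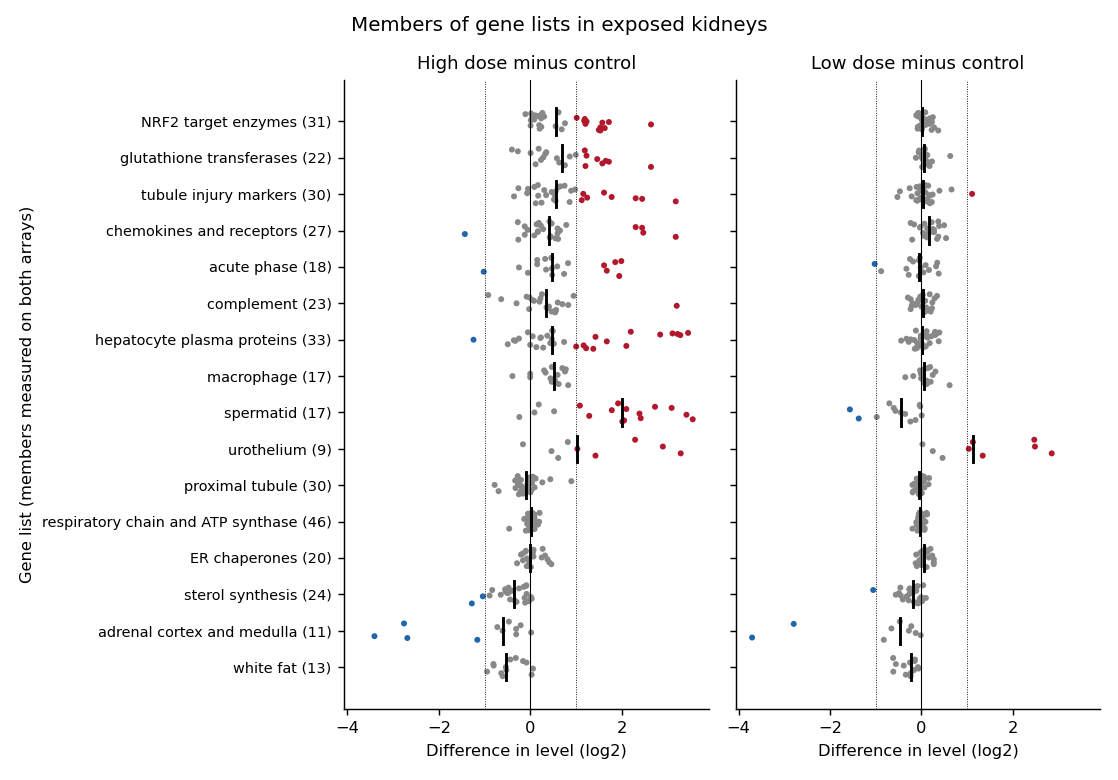
Differences in level (log2) of the members of 16 gene lists, high dose minus control on the left and low dose minus the same control on the right. Points are genes measured on both arrays, red or blue where they passed the rule as higher or lower, black bars are list medians, and dotted lines mark 1 and -1. At the high dose the NRF2 list has its median at 0.56 and the spermatid list at 2.01, while the proximal tubule and respiratory chain lists lie close to 0. The urothelium and adrenal lists are displaced at both doses.

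The segments of the nephron were level with the control by their markers. Of 30 genes of the proximal tubule 0 passed the rule, the median difference was -0.09, and the summed level was 12.1 in the high-dose kidney and 12.2 in the control. The largest differences among them were Slc22a8 (0.90), the protease Napsa (-0.78) and Cyp2e1. The thick limb list (15 genes, median 0.18), the intercalated cell list (15 genes, median 0.12), the podocyte list (14 genes, median -0.02) and the distal convoluted tubule list (11 genes, median -0.04) had 0 members past the rule. Of 15 principal cell genes 1 was higher, Elf5 (1.33, and 0.72 after normexp correction), against 1.13% of all measured genes. Respiratory chain and ATP synthase genes, 46 measured, had a median of 0.02 and a range of -0.46 to 0.20. In the calcium and vitamin D list the 1-alpha-hydroxylase Cyp27b1, which makes active vitamin D, differed by 1.14 (0.92 after normexp correction), and its opponent Cyp24a1 differed by 0.39.

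Carriers of nutrients and salts, which do most of the work of the tubule, were close to the control. Of 34 measured amino acid carriers and 13 glucose carriers 0 passed the rule, with medians of 0.06 and 0.13. Over all measured genes 1.13% were higher and 0.570% lower. Of 28 genes of salt and acid-base transport 1 was higher, Slc4a11, with a median of 0.12. Of 14 sodium pump subunits and FXYD proteins 1 was higher, the sperm subunit Atp1a4. The 16 measured claudins, which seal the spaces between tubule cells, had 0 past the rule and a median of 0.16. Genes of copper handling, 10 measured, lay within 0.20 of the control, and of 20 zinc and manganese carriers 1 was higher, Slc39a4. In the medulla, where cells gather osmolytes against high salt, 12 listed genes had 0 past the rule, with the urea carrier Slc14a2 at 0.97 and the betaine carrier Slc6a12 at 0.88.

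Other cells that belong to the kidney differed little. The endothelium list (14 genes, median 0.02), the fibroblast and matrix list (20 genes, median 0.13), the red cell list (9 genes, median 0.18), the lymphocyte list (12 genes, median 0.06) and 14 androgen-dependent kidney genes (median -0.05) had 0 members past the rule. The shares over all measured genes were 1.13% higher and 0.570% lower. Of 19 genes of the renin-angiotensin and endothelin systems 1 was higher, angiotensinogen, Agt, by 1.02, and by 0.61 after normexp correction. Fatty acid synthesis, 22 genes, had 0 past the rule and a median of -0.08, and of 31 fasting and fatty acid oxidation genes 1 was lower, Mfsd2a.

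Sterol synthesis lay below the control. Of 24 listed genes 0 were higher and 2 lower, against 1.13% and 0.570% of all measured genes. Of the 24, 22 lay below 0, and the median was -0.37, against -0.18 in the low-dose kidney. The demethylase Cyp51 was at 1.63 in the high-dose kidney and 2.91 in the control (-1.16 on its other probe), and the isomerase Idi1 at 2.39 against 3.43 (-0.99 after normexp correction). Insig1 differed by -0.89 and Pmvk by -0.55. Other bright genes below the control were Mfsd2a, a carrier of lysophospholipids (0.90 against 2.26), Cish, an inhibitor of cytokine receptors (1.82 against 2.95), and the nuclear receptor gene Ppard (1.19 against 2.24), the last 2 named after their values were seen. Clock genes differed in opposite directions, with Dbp at 4.46 against 2.99 and Arntl, which activates Dbp, at -1.76 against -0.85, and sampling times are not given in the sources used here.

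Several of the largest differences belonged to the markers of other cells. Rbmy, a Y-linked RNA-binding protein gene of germ cells, had the largest difference of any gene with a matched symbol, at 1.66 in the high-dose kidney against -3.70 in the control. Ldhc, the lactate dehydrogenase of sperm, was at -0.49 against -4.04, the protamine Prm1 at 3.33 against -0.09, and the transition protein Tnp1 at 1.49 against -1.60. Prm1 and Tnp1 also passed the rule on the high-dose brain array against the control brain (5.54 and 3.88). Rbmy differed by 0.15 there. On the high-dose liver array Prm1 differed by 0.35, Tnp1 by -0.02 and Rbmy by 0.33. The source of these transcripts was not tested. The summed level of the spermatid list was 5.40 in the high-dose kidney and 4.49 in the control, 11 of its 28 genes, among them Odf1, Acrv1 and Izumo1, were not measured on both arrays, and its median at the low dose was -0.45. The urothelial genes Upk3a, Sprr1a and Gsdmc3 differed by 2.29, 2.90 and 3.29 at the high dose and by 2.47, 2.49 and 2.85 at the low dose. Summed over that list, the level was 3.80 in the high-dose kidney and 3.62 in the control, and Upk2, Upk1b and Krt13 were not measured on both arrays.

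The 12 largest differences in the negative direction opened with adrenal genes. Cyp21a1, the steroid 21-hydroxylase, was at -1.998 in the high-dose kidney and 1.41 in the control (-0.51 on its other probe), Star, which brings cholesterol into mitochondria, at -3.51 against -0.75, and Chga, the granule protein of chromaffin cells, at -4.24 against -1.55. Cyp11b1 and Chgb were well above background in the control kidney alone and at least 16.4-fold and 12.5-fold lower in the high-dose kidney. In the low-dose kidney Star was at -3.54 and Cyp21a1 at -2.29. Both genes were thus low in the 2 exposed kidneys. Of 9 adrenal list genes also measured at the low dose, 2 were lower there by the rule, against 0.276% of all measured genes. The reason for these differences was not tested. The summed level of the list was 5.20 in the high-dose kidney and 5.39 in the control. Of 8 measured brown fat genes 2 were lower, against 0.570% of all measured genes. They were Ucp1 (-1.42, and -0.72 after normexp correction) and Cox8b (-1.22). The white fat list had 0 past the rule, 11 of 13 below 0 and a median of -0.52, with Adipoq at 0.01 against 0.62.

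The other genes among the 12 largest were dimmer or less well supported. In the positive direction they included H2al1e, a histone variant of spermatids (3.02, not well above background at the low dose). In the negative direction they were Sly (-1.94, and -0.95 after normexp correction), a Y-linked gene of spermatids, Cela2a (-1.69), a pancreatic protease, the BMP antagonist Nog (-1.67), Dpysl5 (-1.67, and -0.85 after normexp correction), Slc22a7, Dio3os (-2.43), Zfp169 (-1.86) and Plxna3 (-1.58, and -0.74 after normexp correction). The last 3 had other probes at 0.12, 0.13 to 0.27, and 0.31. Olfr1419, an olfactory receptor gene with no matched symbol, differed by -1.63, more than Plxna3. Of the bounds, the 4 largest in the positive direction were those of Saa2, Saa3, the sulfotransferase Sult2a6, at least 14.5-fold higher, and F2. In the negative direction they were those of Cyp11b1, Chgb, Mgarp, at least 8.28-fold lower, and Csta1, at least 8.25-fold lower.

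Probes of the same gene were compared where more than 1 was measured. Of 41 higher genes with another measured probe, 29 had all their other probes above 0 and 19 had at least 1 other probe past 1. Of 14 lower genes 9 had all other probes below 0 and 5 had 1 or more past -1. Slpi, a protease inhibitor of epithelia, was higher by 2.45 on the reported probe and differed by -0.16 on the other. Probes that bind different parts of a transcript, or different isoforms, need not give the same value.

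**Figure D5:**
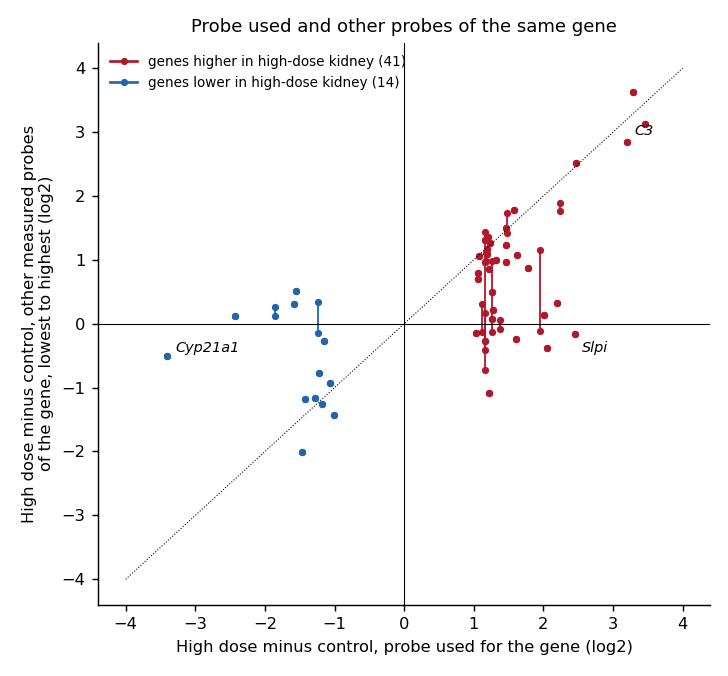
High dose minus control (log2) on the probe used for a gene (horizontal axis) and on its other measured probes (vertical axis, joined from lowest to highest), for the 41 higher and 14 lower genes with more than 1 measured probe. The dotted line marks equal values. C3 lies close to it at 3.21 and 2.84, and Slpi lies far from it at 2.45 and -0.16.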

How the data were processed

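As deposited, the scanner output gives linear intensity per spot for 1-colour Agilent arrays of design 074809, with 50 ng of total RNA labelled per array, per the labels' protocols. The submitters' processing notes name Agilent Feature Extraction 12.0.3.1, and per the file headers background was subtracted and spatial trends removed before the processed intensity was written. Flags for well above background, saturated and outlying spots (score 0 or 1) are, per the file headers, from the same software. The authors' value table gives this intensity divided by the 75th percentile of each array over all spots, with kidney column medians of 0.0936 (high), 0.0905 (low) and 0.0940 (control).

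Control and outlier spots were left out, log2 processed signals were averaged per probe, and the 75th percentile over non-control spots was subtracted. Each gene was read from the probe that was brightest on average in the 3 kidneys. Where only 1 of the compared arrays was well above background, the fold is a bound, taken against that array's lowest accepted signal or the dim probe's own value if larger. Names were updated through RefSeq (GRCm38.p6), which matched 32994 of 56605 probes by accession. Positions are the array files' own (mm9), promoter windows RefSeq's. With 1 array per group no test was possible. The number of arrays limits the precision. The members and the 60 lists were chosen with earlier results of these data known. Genes can stand on more than 1 list, such as Lcn2 on the iron and neutrophil lists, and are counted in each. Named were the 12 largest differences in each direction of genes with a symbol matched by accession, olfactory receptors and clones left out, transporters past the rule, the 4 largest bounds in each direction, metal list members and up to 8 members of other lists, and a few of these genes are not reported here. Alternatives were another background correction (normexp with offset 50, limma 3.58.1 in R 4.3.3), median and quantile scaling, 2 filters, probe averaging, outlier spots kept, no condition on array error and the value table. The rest ran in Python 3.11.15 with pandas 2.3.3, numpy 2.4.6 and matplotlib 3.10.9, and the size rule was tested on simulated data.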

Additional observations from a re-analysis of the deposited data

Results flagged for a closer look

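Genes past the size rule in opposite directions in the high-dose kidney and in the high-dose brain or liver, each against the control array of its own tissue, were picked out. The difference between tissues was not tested, with 1 array per group. Cdkn1a, the cell cycle inhibitor, differed by 1.13 in the kidney and by -2.18 in the liver. Mfsd2a, the lysophospholipid carrier, differed by -1.36 in the kidney and by 1.50 in the liver. Cela2a, the pancreatic protease, differed by -1.69 in the kidney and by 1.66 in the liver. Cyp27b1, the vitamin D 1-alpha-hydroxylase, differed by 1.14 in the kidney and by -1.14 in the brain. Meg3, a long noncoding RNA, differed by -1.18 in the kidney and by 1.24 in the liver. A probe for an unnamed locus on chromosome 1 differed by -1.21 in the kidney and by 1.25 in the liver, and one on chromosome 13 by -1.43 in the kidney and by 1.07 in the brain.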

How the results depend on the processing

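No paired analysis was possible because each group has 1 array. None of the 102 named genes past the rule changed direction under the alternatives in which it was measured. The stricter filter left only 1 member of the urothelium list, the one below 0, at -0.16. The value there is thus not a median over members like the 1.03 of the whole list. Medians within 0.08 of 0 (podocyte, distal tubule, lymphocyte, copper and 4 other lists) changed sign under some settings. The count of higher genes was 127 after normexp correction, 383 with no filter on dim probes and 75 with a stricter filter that tests fewer genes, against 241. The count of lower genes was 27 after normexp correction and 23 under the stricter filter, against 122. Higher transporters numbered 6 under the stricter filter, against 11, and lower ones 3 after normexp correction and 2 under the stricter filter, against 5. The cause of the changes under normexp was not tested. Other settings moved these counts by less than 1.5 times, and the alternatives chosen after seeing the data gave 229 higher and 117 lower genes when all measured probes had to share the sign, and 210 and 115 without members of the spermatid, hepatocyte, urothelium, adrenal and fat lists. Of the 102 named genes past the rule, 25 fell short of it after normexp correction, 5 with the mean of a gene's probes, 2 under median scaling and 2 under quantile normalization, and the stricter filter left 59 of them measured. Hsd3b1 passed it with the mean of its probes (-1.95), as did Arntl (-1.03). Dim signals limit the smaller differences.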

Other observations

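The positions of the probes, as the array files give them in mm9, place several of the higher genes side by side. These neighbourhoods were chosen after the values were seen. The largest difference of any probe was 6.15, on a probe for an unnamed locus at chromosome 9 from 78116834 to 78116893, with a level of 2.31 in the high-dose kidney and -3.84 in the control. It lies between Gsta4 and Gsta2, beside another locus probe with a difference of 2.67, and the gene model Gm10639, with 2.68, close to the 2.64 of Gsta2. An unnamed transcript between Gm10639 and Gsta2 was well above background in the high-dose kidney alone and at least 7.12-fold higher there. Of the flanking genes Cilk1 differed by -0.73 (0.19 on its other probe), Dppa5a by -0.08, Cgas by 0.29, Mto1 by -0.10, Eef1a1 by 0.02 and Fbxo9 by -0.11, and Ooep was at least 2.89-fold lower. Which transcripts these locus probes detect was not tested. Near the mu-class transferases on chromosome 3, 16 genes and loci were measured and 3 were higher (Gstm3, Gstm4 and Gstm6), while the others lay between -0.61 (Gm12500) and 0.63 (Gstm2). Gstm1, which was higher by 1.58, is not among these 16. The array files place its reported probe on chromosome 5. Next to Abcb4 on chromosome 5, Crot, a peroxisomal carnitine acyltransferase, differed by 0.16.

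On chromosome 12 the antitrypsin relative Serpina1f, next to Serpina1a to Serpina1e, lay on the other side, at 2.39 in the high-dose kidney against 3.45 in the control. On chromosome 13 the neighbours of Akr1c12 and Akr1c13 were close to the control, with Akr1c14 at -0.43, Akr1c18 at 0.23 and Akr1c19 at 0.27. Other bright genes with large differences and no list of their own were Reep6, a membrane-shaping protein (5.64 in the high-dose kidney against 3.49 in the control), Mogat2, an acyltransferase of triglyceride synthesis (3.02 against 0.97), and Mdk, the growth factor midkine (4.84 against 3.37, with 1.42 and 1.73 on its other probes). The osteocalcin genes Bglap2 and Bglap3 differed by 2.81 and 2.95 at low levels, and their sequences are alike.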
